A study of Mus musculus with 10 samples.

Results

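The 10 genes described here encode growth factors and receptors of the fibroblast growth factor (FGF) and platelet-derived growth factor (PDGF) families. They are the FGF ligands Fgf2, Fgf7 and Fgf10, the FGF receptor genes Fgfr1, Fgfr2, Fgfr3 and Fgfrl1, and the PDGF ligands Pdgfa, Pdgfb and Pdgfc. They were found by gene symbol among the 18385 genes listed in the mRNA-seq files, and all 10 were listed with reads in all 6 libraries. The cells were adipocyte precursors (APs), the fibroblast-like cells of fat from which adipocytes form. They came from subcutaneous white adipose tissue of C57BL/6 J mice, where magnetic beads removed CD45- and CD31-positive cells and then kept SCA-1-positive cells. For mRNA-seq, 3 control cultures (replicates 1 to 3) and 3 cultures given interleukin-4, IL-4 (replicates 4 to 6) were harvested on day 4. For small RNA sequencing, 2 cultures of each group were harvested on day 2. The paper calls the small RNA cultures biological replicates and the mRNA-seq cultures replicates. How many animals gave each culture is not given in the sources used here.

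FGFs bind receptor tyrosine kinases together with heparan sulfate, and the receptor signals through adaptor proteins to Ras and the kinase ERK. PDGFs are dimers that bind PDGF receptor alpha or beta, which use much of the same chain. Both families are known to drive growth of fibroblast-like cells, and PDGF receptor alpha is a common marker of APs. In the embryo, FGF7 and FGF10 are typically made by mesenchymal cells and act on the epithelial form of FGF receptor 2. FGF2 is a broadly acting mitogen, and PDGF-BB can bind both PDGF receptors.

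Pdgfb and Fgf2 fell most with IL-4, and Fgfr2 fell by less than a log2 unit. Fgf7 and Fgfrl1 fell slightly and Fgfr1 rose slightly. Fgf10, Fgfr3, Pdgfa and Pdgfc did not pass the test. Of the 10 genes, 5 were lower and 1 was higher at an adjusted p under 0.05 (edgeR's quasi-likelihood test, p-values adjusted by Benjamini-Hochberg over the 14010 genes tested), which is 6 of 10 against 37.4% of all genes in either direction. Over all genes tested, 18.4% were lower and 19% were higher by that rule. The normalized counts of 6 of the 10 genes did not overlap between the groups, against 50.4% of all genes. With a log2 fold change beyond 1 required as well, 2 of the 10 genes were lower and 0 were higher, against 5.26% and 5.77% of all genes. The median log2 fold change was -0.16 for the 10 genes and 0.00 for all genes tested. All fold changes below are IL-4 over control, and errors are SD over 3 libraries unless called SE.

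**Figure D1:**
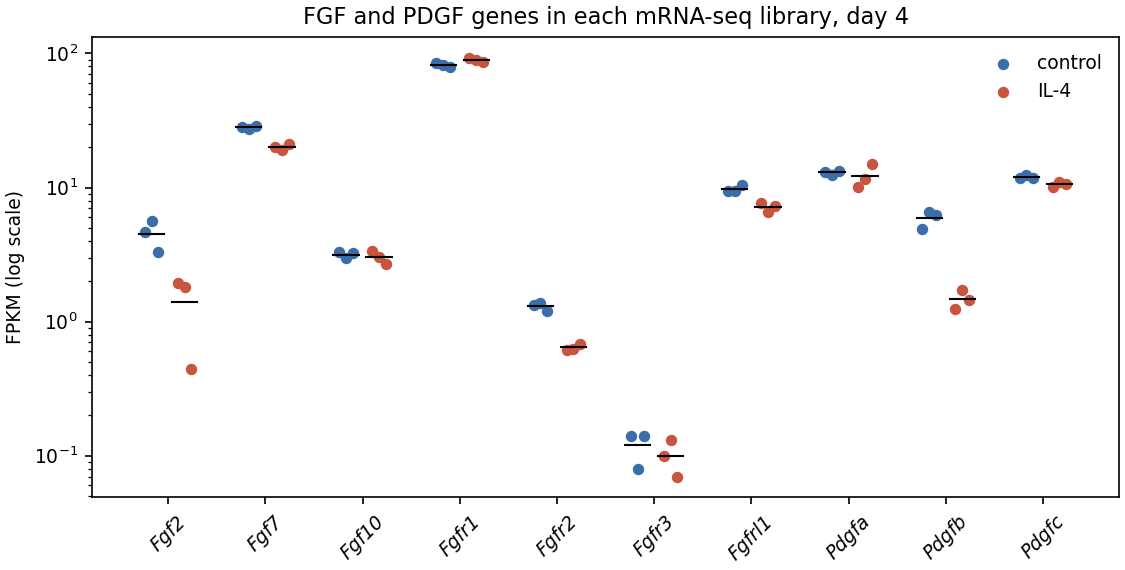
FPKM (log axis) of the 10 genes in the 3 control and 3 IL-4 libraries of day 4, where each point is a library and each bar the mean of a group. Fgfr1 lies between 79.47 and 93.05 in all libraries, while Pdgfb lies at 4.9 or above in the controls and at 1.72 or below with IL-4.

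Small changes here depend on how libraries were scaled. TMM scaling, which assumes that most genes do not change, left the median log2 fold change of all genes at 0.00, whereas scaling to library totals alone put it at -0.17. Under library totals, 1704 genes were higher and 4962 were lower, against 2663 and 2582 with TMM. FPKM carry the scale of library totals, so a gene that stayed level in FPKM rose relative to the median gene.

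Markers of other cell types also moved between the groups. The summed FPKM of 14 macrophage markers was 3534 to 4551 in control libraries against 1411 to 1859 under IL-4, and 11 of the 14 were lower and 2 higher by edgeR's test. Lyz2 alone gave 2469 to 3225 FPKM of that sum in control libraries and 673 to 937 under IL-4. The 2 higher genes were Mrc1 and Cd163, and Cd68 did not pass the test. Over all genes tested, 18.4% were lower and 19% higher. Cx3cr1 (3, 3 and 5 reads under IL-4) and Aif1 (7, 6 and 13), both lower, passed the filter on low counts only through the controls. Among the mural markers below, so did Kcnj8 (11, 9 and 12 reads under IL-4). The calls of these genes thus partly follow from the filter. The sum of 6 mural cell markers was 10.5 to 10.9 and 3.58 to 4.8, with all 6 lower, and that of 5 Schwann cell markers was 33.3 to 35.4 and 16.5 to 16.6, with 4 lower. The 12 AP and fibroblast markers, which include Pdgfra and Pdgfrb, were all listed, and their sum was 8813 to 9225 in control libraries against 12274 to 13356 under IL-4, with 8 higher and 2 (Pdgfrb and Lum) lower. Most of that sum came from the collagen genes Col1a1, Col1a2 and Col3a1, and Col3a1 went from 2151 to 2201 FPKM up to 4818 to 5178. The 8 endothelial markers summed to 14.3 to 14.98 in the controls and 15.1 to 17.3 with IL-4, with 3 lower (Cdh5, Emcn and Tie1, with log2 fold changes of -1.60, -1.49 and -1.16) and 2 higher, among them Vwf at 3.08. The 6 epithelial markers summed to 4.53 to 5.82 and 8.42 to 9.45, with 1 higher, Cdh1 at a log2 fold change of 4.42, and 1 lower. Lymphocyte markers summed to at most 0.15. The 7 mature adipocyte markers summed to 32.9 to 38.8 in the controls and 55.0 to 78.6 with IL-4, nearly all of it Fabp4, which was higher (log2 fold change 1.10, edgeR adjusted p = 0.000303). Adipoq had 0, 0 and 0.09 FPKM in control libraries against 0.39, 0.27 and 0.29 under IL-4. Plin1, Ucp1 and Cfd were under 0.1 FPKM in every library, and Lep and Cidec were not listed. Their part in the changes below was not tested, and in such bulk libraries fewer cells of a type and less RNA per cell cannot be told apart.

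By FPKM, which corrects for transcript length, the order of the genes in the control libraries was Fgfr1, Fgf7, Pdgfa, Pdgfc, Fgfrl1, Pdgfb, Fgf2, Fgf10, Fgfr2 and Fgfr3. Fgfr1 had 82.4 ± 2.92 FPKM, which was above 95.5% of the listed genes, and Fgfr3 had 0.12 ± 0.03. Among neighbours, Pdgfa (13.0 ± 0.45) lay above Pdgfc (12.0 ± 0.34) in each control library, but the lowest Pdgfa value exceeded the highest Pdgfc value by little (12.49 against 12.43). The control ranges of Pdgfb and Fgf2 overlapped, as did those of Fgf2 and Fgf10, and with IL-4 those of Pdgfa and Pdgfc overlapped. With IL-4, Fgf10 stood sixth in all 3 libraries, above Fgf2 and Pdgfb, while Fgf2, Pdgfb and Fgfr2 changed places among the libraries. The lengths matter for this order, because the files count Fgf2 on a transcript of 695 bases and Pdgfa on 1019 bases, against longest coding transcripts of 5973 and 2060 bases in GENCODE M21.

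Among the FGF ligands, Fgf2 (Entrez gene 14173, chromosome 3, 37348346 to 37410108 on the plus strand of GRCm38) had 83, 101 and 59 reads in control replicates 1, 2 and 3. With IL-4 it had 35, 33 and 8 reads in replicates 4, 5 and 6. The groups did not overlap, and IL-4 replicate 6 was the lowest. Normalized counts were 77.1 ± 20.8 and 27.0 ± 16.2 (n = 3 each), a log2 fold change of -1.52 (SE 0.42, 95% interval -2.50 to -0.54, adjusted p = 0.0240 from edgeR). Without control replicate 1 or 2 the edgeR adjusted p was 0.0749 and 0.0866, and without IL-4 replicate 6 the log2 fold change was -1.07. Leaving out IL-4 replicate 6 raised the calls over all genes to 3198 higher and 3014 lower, from 2663 and 2582. Leaving out any other library lowered both. Nudt6, a gene on the opposite strand whose exons overlap those of Fgf2, also fell, by 0.63 on the log2 scale (SE 0.13, edgeR adjusted p = 0.00709). It had 163 to 214 reads in control libraries against 112 to 113 under IL-4, and since the counting is not stated to use strand, reads of the overlap cannot be told apart. The overlap was taken over all annotated Fgf2 exons. Whether the 695-base transcript counted for Fgf2 shares it was not checked.

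Fgf7 (Entrez gene 14178, chromosome 2, 126034658 to 126091185, plus strand), the keratinocyte growth factor, was the most abundant ligand. It had 28.49, 27.38 and 28.7 FPKM in control libraries against 20.21, 18.98 and 21.22 under IL-4, with no overlap. Its log2 fold change was -0.31 (SE 0.06, 95% interval -0.45 to -0.18, edgeR adjusted p = 0.00375). Fgf10 (Entrez gene 14165, chromosome 13, 118669791 to 118792115, plus strand), which binds the same epithelial receptor form as FGF7, had 426, 382 and 418 reads in control libraries against 442, 397 and 350 under IL-4. Its groups overlapped, and its log2 fold change was 0.11 (95% interval -0.14 to 0.36, edgeR adjusted p = 0.465), with a sign that turned to -0.06 under library totals.

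The summed FPKM of the 3 FGF ligands was 35.2 to 36.5 in control libraries against 23.8 to 25.5 under IL-4. Fgf7 held most of it in every library, 76.1% to 81.5% in control libraries against 79.1% to 87.2% under IL-4. The share of Fgf2 was 12.6 ± 3.18% in control libraries against 5.68 ± 3.35% under IL-4 (n = 3 each), and that of Fgf10 was 8.82 ± 0.50% and 12.3 ± 1.21%. Neither share overlapped between the groups, and both had p = 0.1 in a two-sided exact permutation test, the smallest that 3 against 3 libraries allow (0.143 after Benjamini-Hochberg adjustment over the 10 shares tested). Shares of a family are tied, since a fall of one gene raises the others, and Fgf10 itself did not pass edgeR's test. In the controls Fgf2 held more of the ligand FPKM than Fgf10 in each library, but in control replicate 3 by little (9.34% against 9.17%). With IL-4 Fgf2 held less in each. This order depends on the lengths counted, 695 bases for Fgf2 and 4572 for Fgf10. By reads, Fgf10 was above Fgf2 in every library.

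**Figure D2:**
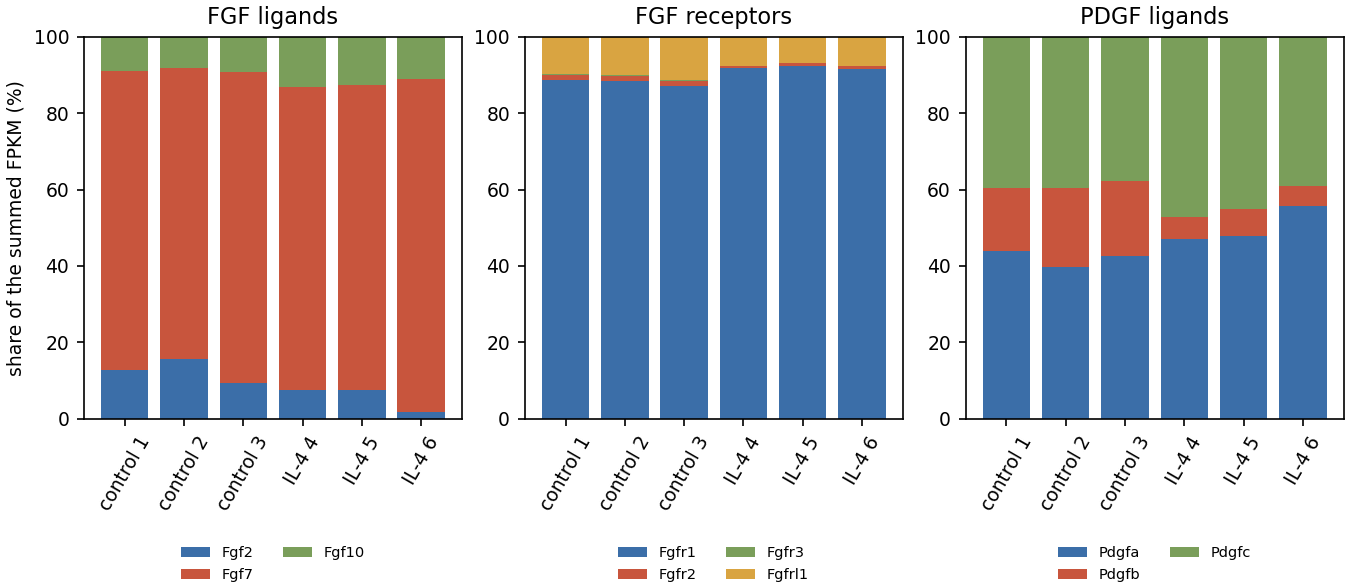
Share of each gene in the summed FPKM of its family (percent, vertical axis) in the 3 control and 3 IL-4 libraries. Fgf7 and Fgfr1 fill most of their bars in every library, and the Pdgfb segment is 16.4% to 20.8% in control libraries against 5.33% to 7.09% under IL-4.

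Among the receptors, Fgfr1 (Entrez gene 14182, chromosome 8, 25513654 to 25575718, plus strand) encodes the main FGF receptor of mesenchymal cells. It had 85.31, 82.55 and 79.47 FPKM in control libraries against 93.05, 90.2 and 86.3 under IL-4. The lowest IL-4 library was just above the highest control library. The log2 fold change was 0.31 (SE 0.07, 95% interval 0.15 to 0.46, edgeR adjusted p = 0.00780). Under library totals it was 0.13 (edgeR adjusted p = 0.112) in place of 0.31, which is 0.30 above the median of all genes in that fit, so its rise is relative to the median gene.

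Fgfr2 (Entrez gene 14183, chromosome 7, minus strand), the receptor of FGF7 and FGF10 in its epithelial form, was low. It had 191, 198 and 179 reads in control libraries against 92, 93 and 101 under IL-4, or 1.30 ± 0.08 and 0.64 ± 0.03 FPKM. All 3 IL-4 libraries were well below the controls. The log2 fold change was -0.84 (SE 0.10, 95% interval -1.08 to -0.59, edgeR adjusted p = 0.000459), and the gene stayed past that threshold under all 13 alternatives. The files give reads per gene, so the epithelial and mesenchymal forms of Fgfr2 were not separated here. Exons annotated to Fgfr2 in GENCODE overlap those of Ctbp2 on the same strand, and Ctbp2 had 1516 to 1835 reads and a log2 fold change of 0.00 (edgeR adjusted p = 0.993). GENCODE places Fgfr2 at 130162451 to 133123350, whereas RefSeq, whose transcripts were counted, ends it at 130266808. Whether the counted transcripts share the overlap was not checked. Fgfr3 (Entrez gene 14184, chromosome 5, 33721674 to 33737068, plus strand) had only 16, 9 and 17 reads in control libraries against 12, 15 and 9 under IL-4. Its 95% interval of -0.86 to 0.72 leaves a change of most of a log2 unit undetectable at this depth.

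Fgfrl1 (Entrez gene 116701, chromosome 5, 108692382 to 108706924, plus strand) encodes an FGF receptor that lacks the kinase domain. It had 694, 684 and 754 reads in control libraries against 569, 495 and 544 under IL-4, with no overlap. Its log2 fold change was -0.25 (SE 0.08, 95% interval -0.43 to -0.07, edgeR adjusted p = 0.0355). Without any of the 3 control replicates or IL-4 replicate 5 the edgeR adjusted p was 0.0764 to 0.136. The mean transcript length that the files give for Fgfrl1 also differed between the groups. RefSeq lists transcripts of 2656 and 2383 bases for it, and if these were the lengths counted, the shorter held 12.7%, 15.9% and 23.5% in control libraries against 8.17%, 0% and 5.16% under IL-4. These estimates did not overlap (p = 0.1, two-sided exact permutation test, the smallest possible), and they rest on the assignment of reads to transcripts by the authors' software.

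The 4 receptor genes summed to 91.2 to 96.3 FPKM in control libraries against 94.3 to 101 under IL-4. Fgfr1 held 88.0 ± 0.81% of this in control libraries against 91.9 ± 0.50% under IL-4 (n = 3 each). The share of Fgfr2 was 1.39 ± 0.07% and 0.66 ± 0.06%, and that of Fgfrl1 was 10.5 ± 0.84% and 7.34 ± 0.50%. None of these 3 shares overlapped between the groups (p = 0.1 each, adjusted 0.143, two-sided exact permutation test). Shares within a library do not depend on the scaling of libraries.

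**Figure D3:**
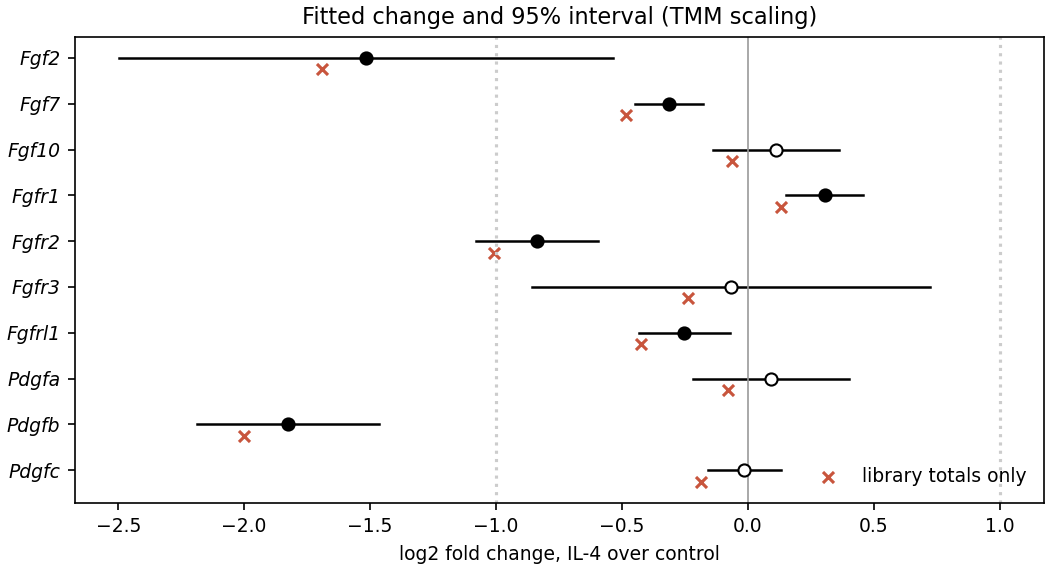
Log2 fold change (IL-4 over control, horizontal axis) of the 10 genes with the 95% interval under TMM scaling, with filled points for an edgeR adjusted p under 0.05 and open points otherwise. Crosses show the value under library totals only, which lies to the left for all 10 genes, and dotted lines mark a log2 fold change of 1 in either direction.

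Among the PDGF ligands, Pdgfb (Entrez gene 18591, chromosome 15, 79995874 to 80014977, minus strand) encodes the B chain, whose dimer is the main ligand of PDGF receptor beta. It had 405, 540 and 516 reads in control libraries against 104, 144 and 122 under IL-4. Every control library held more than 2 times the reads of any IL-4 library. Normalized counts were 462 ± 69.2 and 130 ± 21.6 (n = 3 each), a log2 fold change of -1.83 (SE 0.16, 95% interval -2.19 to -1.47, edgeR adjusted p = 5.38e-05), or 3.55-fold lower. Over the 13 alternatives the log2 fold change was -2.0 to -1.48, with an adjusted p of at most 0.000413.

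Pdgfa (Entrez gene 18590, chromosome 5, 138976014 to 138997370, minus strand), the A chain, which binds PDGF receptor alpha, had 356, 339 and 364 reads in control libraries against 278, 320 and 419 under IL-4. The IL-4 libraries lay on both sides of the controls, and replicate 6 was the highest. The log2 fold change was 0.09 (95% interval -0.22 to 0.40, edgeR adjusted p = 0.629), and it was -0.06 without IL-4 replicate 6. Pdgfc (Entrez gene 54635, chromosome 3, 81036416 to 81214040, plus strand) encodes a ligand that must be cleaved to become active. It had 11.85, 12.43 and 11.83 FPKM in control libraries against 10.16, 10.93 and 10.62 under IL-4. Its log2 fold change was -0.01 (95% interval -0.16 to 0.13, edgeR adjusted p = 0.879) with TMM scaling and -0.19 (edgeR adjusted p = 0.0379) with library totals.

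The summed FPKM of the 3 PDGF ligands was 29.9 to 31.5 in control libraries against 21.5 to 27.2 under IL-4. Pdgfb held 19 ± 2.31% in control libraries against 6.06 ± 0.92% under IL-4 (n = 3 each), and Pdgfa held 42.0 ± 2.17% and 50.2 ± 4.73%. Both shares were without overlap (p = 0.1, adjusted 0.143, two-sided exact permutation test), while that of Pdgfc, 38.9 ± 1.10% and 43.8 ± 4.22%, overlapped. These shares are tied, since a lower share of Pdgfb raises the others, and Pdgfa itself did not pass edgeR's test. They also depend on the lengths counted, 1019 bases for Pdgfa and 3512 for Pdgfc, while RefSeq lists Pdgfa transcripts of 1967 and 2036 bases. By reads, Pdgfc was above Pdgfa in every library.

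The receptors of these ligands are not among the 10 genes, and their values are given for context. Pdgfra had 55.39, 57.15 and 53.39 FPKM in control libraries against 77.43, 77.33 and 59.53 under IL-4, a log2 fold change of 0.54 (SE 0.11, edgeR adjusted p = 0.00654). Pdgfrb had 199.95, 196.71 and 172.87 FPKM in control libraries against 112, 111.54 and 96.38 under IL-4, a log2 fold change of -0.66 (SE 0.10, edgeR adjusted p = 0.000989). Pdgfrb stood 3.43 ± 0.19 times as high as Pdgfra in the controls and 1.5 ± 0.10 times as high with IL-4 (n = 3 each, p = 0.1, two-sided exact permutation test).

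Genes around the 10 in the same pathways were taken from 5 lists with 98 genes, of which 84 could be tested. Of these, 25 were higher and 19 lower at an edgeR adjusted p under 0.05. Over all genes tested 19% were higher and 18.4% lower by that rule, 37.4% in either direction. The counts of each list below stand beside these shares, and no set test was made. Of the other FGF ligands, 10 of 19 were tested, with 4 higher and 3 lower, and a median log2 fold change of -0.04. Fgf11, an FGF that stays inside the cell, rose from 138 ± 26.7 to 600 ± 20.5 normalized counts (log2 fold change 2.12, edgeR adjusted p = 8.28e-06), and Fgf18 rose by 0.39 on the log2 scale (edgeR adjusted p = 0.0230). Fgf5 fell, with a log2 fold change of -0.71 (edgeR adjusted p = 0.00198). Fgf1, Fgf23, Fgf13 and Fgf14, the other genes of this list that passed the test, were below the mean count set for naming genes and were picked after their values were seen. They passed the filter on low counts only through the group where they are high. Their calls, counted above as higher or lower, thus partly follow from the filter and give no separate support. Fgf1, which binds all FGF receptors, had 1, 6 and 8 reads in control libraries against 109, 126 and 117 under IL-4. Fgf23, a hormone of phosphate balance, had 3, 2 and 4 reads in control libraries against 30, 56 and 46 under IL-4. Fgf13 and Fgf14, which like Fgf11 stay inside the cell, were lower. Fgf13 had 34, 36 and 33 control reads and 10, 3 and 12 after IL-4 (log2 fold change -1.87, edgeR adjusted p = 0.00392). Fgf14 had 39, 26 and 28 control reads and 6, 3 and 5 after IL-4 (log2 fold change -2.55, edgeR adjusted p = 0.000610).

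Of the receptor and co-receptor genes outside the 10, 18 of 23 were tested, with 8 higher, 4 lower and a median log2 fold change of 0.23. Hs6st1 and Hs6st2, both lower, encode enzymes that add sulfate to heparan sulfate, the co-factor of FGF binding. Hs6st1 fell from 5210 ± 112 to 1883 ± 143 normalized counts (log2 fold change -1.47, edgeR adjusted p = 2.07e-06), and Hs6st2 had a log2 fold change of -1.16 (edgeR adjusted p = 0.000133). Gpc6, a heparan sulfate proteoglycan of the cell surface, rose by 1.14 (edgeR adjusted p = 0.000340) and Flrt3, a membrane protein that can bind FGF receptors, by 1.06 on the log2 scale (edgeR adjusted p = 0.000430). Fgfr4 and the co-receptors Klb and Kl had too few reads for a test.

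All 11 genes of the PDGF receptor and processing list were tested, with 5 higher, 2 lower and a median log2 fold change of 0.09. Pcsk5, a protease that cleaves precursor proteins, rose from 3300 ± 212 to 18457 ± 1430 normalized counts (log2 fold change 2.48, edgeR adjusted p = 4.19e-07), and Pdgfrl, a PDGF receptor-like gene, had a log2 fold change of 1.08 (edgeR adjusted p = 0.000130). Besides Pdgfrb, the protease gene Pcsk6 fell, with a log2 fold change of -0.50 (edgeR adjusted p = 0.0122).

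Of 25 genes for receptor adaptors and the Ras-ERK chain, 3 were higher and 2 lower, with a median of -0.11. Cblb, a ubiquitin ligase that limits receptor signals, rose by 1.49 on the log2 scale (edgeR adjusted p = 1.33e-05) and the adaptor Gab1 by 0.50 (edgeR adjusted p = 0.00171). Map2k1, which encodes the kinase MEK1, had a log2 fold change of -0.17 (edgeR adjusted p = 0.0403). Under library totals, 14 genes of this list were lower, in place of 2, and over all genes 4962 were lower, in place of 2582.

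Of 20 targets and feedback genes of ERK, 5 were higher and 8 lower, with a median of -0.05. Dusp5, counted as lower and below the mean count set for naming genes, had 14, 9 and 10 reads under IL-4. It passed the filter on low counts only through the controls, so its call partly follows from the filter. Dusp6, a phosphatase of ERK that FGF signals induce in many tissues, fell from 1392 ± 153 to 390 ± 28.5 normalized counts (log2 fold change -1.83, edgeR adjusted p = 4.76e-06). Spry1, an inhibitor of receptor tyrosine kinase signals, fell from 1549 ± 36 to 599 ± 30.9 (log2 fold change -1.37, edgeR adjusted p = 2.16e-06). Dusp4, another phosphatase of this kind, rose from 423 ± 61.5 to 1269 ± 186 (log2 fold change 1.58, edgeR adjusted p = 6.79e-05), and Phlda1 had a log2 fold change of 1.27 (edgeR adjusted p = 1.88e-05). The list thus held genes that moved in both directions.

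**Figure D4:**
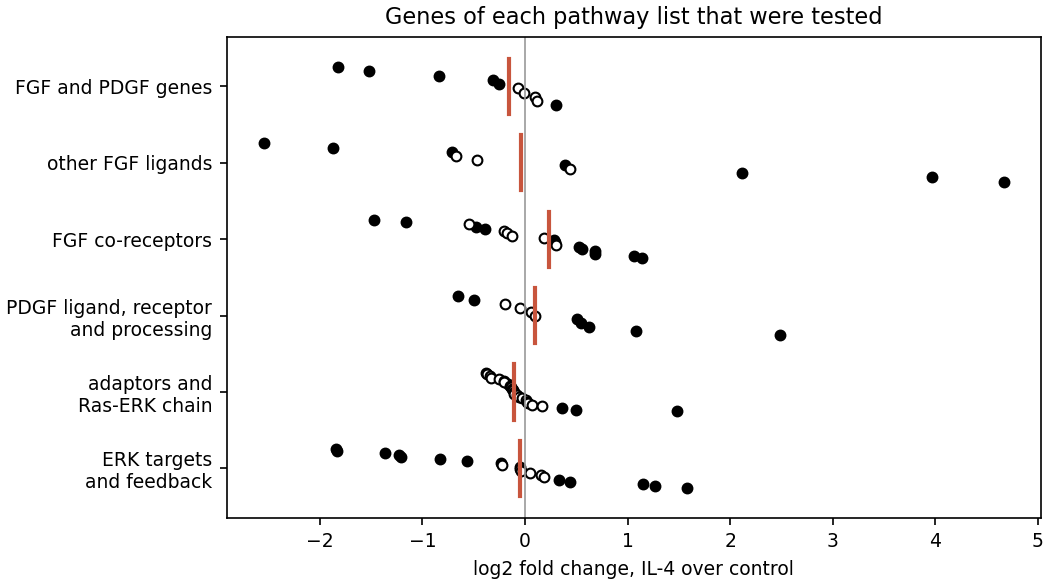
Log2 fold change (IL-4 over control, horizontal axis) of each tested gene of the 10 FGF and PDGF genes and of the 5 pathway lists, with filled points for an edgeR adjusted p under 0.05 and red bars for medians. Each list has genes on both sides of 0, and the medians lie between -0.16 and 0.23.

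The study turned on 6 miRNAs of the H19X locus (chromosome X, 53048044 to 53054327, minus strand), and their sequences are shown. Matches to their seeds were present in 4 of the 10 genes, against 42.4% of 21037 annotated genes. A miRNA pairs with mRNA mainly through its seed, bases 2 to 8, given in capitals in these mature sequences from RefSeq (GRCm38.p6).
miR-322-5p: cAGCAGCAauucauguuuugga
miR-503-5p: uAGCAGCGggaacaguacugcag
miR-351-5p: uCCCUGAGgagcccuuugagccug
miR-542-3p: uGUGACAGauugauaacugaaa
miR-450a-5p: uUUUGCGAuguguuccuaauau
miR-450b-5p: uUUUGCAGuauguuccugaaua
No seed is shared in full, but miR-322-5p and miR-503-5p share bases 2 to 7.

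On day 2, levels in RPM (reads scaled to the same total of mature miRNA reads in each library) were 2426 and 1255 in control libraries against 5594 and 4070 under IL-4 for miR-322-5p. For miR-351-5p they were 3560 and 2945 against 6671 and 7628, and for miR-542-3p 241 and 215 against 730 and 601. The other 3 miRNAs ranged from 5.25 RPM for miR-503-5p in control replicate 2 to 841 for miR-450b-5p in IL-4 replicate 1. For all 6 miRNAs both IL-4 libraries were above both controls, and no test was made of these values.

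**Figure D5:**
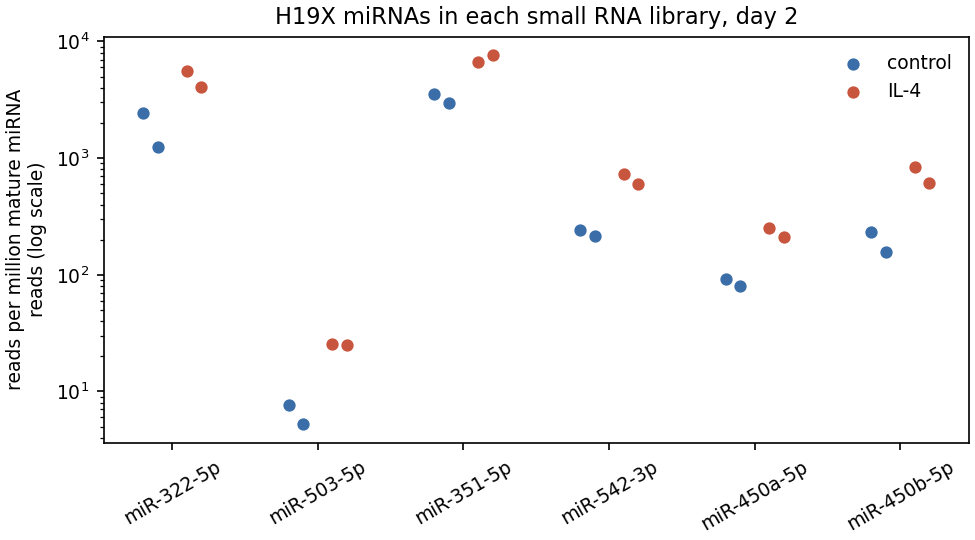
RPM of mature miRNA reads (log axis) of the 6 miRNAs in the 2 control and 2 IL-4 small RNA libraries of day 2, where each point is a library. The IL-4 points of each miRNA lie above its control points, for example at 730 and 601 against 241 and 215 for miR-542-3p.

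Matches to the reverse complement of bases 2 to 8 were counted in the longest 3′ UTR of each gene in GENCODE M21. The 10 genes held 10 matches, in 4 genes, and 42.4% of 21037 annotated genes held a match to at least 1 of the 6 seeds. Fgf2 held 5 matches, in a 3′ UTR of 5311 bases that is longer than those of 96.8% of genes. Fgfr1 held 2, Fgfr3 held 2 and Fgfr2 held 1, while Fgf7, Fgf10, Fgfrl1, Pdgfa, Pdgfb and Pdgfc held 0. Fgf2, with 5 matches, and Pdgfb, with 0, were the 2 of the 10 genes that fell most, and Fgfr1, with 2, was the gene that rose. Any link between matches and changes was not tested. Fgfr3, which did not pass the test, also matched miR-542-3p, and Fgf2 and Fgfr3 matched miR-351-5p. Those sites are not shown. The matches of Fgf2 and Fgfr2 to miR-542-3p and those of Fgfr1 and Fgf2 to miR-322-5p are shown with the bases around them. They are on the strand of the gene, with the match in capitals.
Fgf2, miR-542-3p, chr3:37404798-37404818: ctcacttttgacaCTGTCACt
Fgf2, miR-542-3p, chr3:37404810-37404832: actgtcactgagacaCTGTCACt
Fgf2, miR-542-3p, chr3:37408530-37408552: tcctcagagtacacaCTGTCACt
Fgf2, miR-322-5p, chr3:37409900-37409922: ataggattttacggaTGCTGCTa
Fgfr1, miR-322-5p, chr8:25574758-25574780: ccctcaataaaaaatTGCTGCTg
Fgfr1, miR-322-5p, chr8:25574761-25574783: tcaataaaaaattgcTGCTGCTt
Fgfr2, miR-542-3p, chr7:130163067-130163089: gaaacctgttaaactCTGTCACc
The pair in Fgfr1 overlaps. The first pair in Fgf2 starts 14 and 28 bases into the 3′ UTR, and the other matches of Fgf2 start at base 1165 or beyond, while the Fgf2 transcript counted in the files is 695 bases long in all. Over all genes, matches to miR-542-3p were present in 13.9% and to miR-322-5p in 20.3%, against 3 and 2 of the 10 genes. A match is a description of sequence, and the mRNA and miRNA were measured on different days.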

How the data were processed

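mRNA-seq covered 3 control and 3 IL-4 cultures of APs and small RNA sequencing 2 of each, and groups follow the labels. Reads were filtered with SOAPnuke by the authors, and Bowtie2 and RSEM gave gene levels on RefSeq transcripts of mm10 (the submitters' notes also name HISAT and StringTie, and versions are not given in the sources used here). The authors deposited expected counts, which are estimated and not normalized, and FPKM, which correct for transcript length and the size of the library. For small RNA the deposited read counts per precursor are raw, and they were divided here by the total of mature reads (23790821 to 32061504). Genes not listed in a library were taken as 0. Libraries held 28526832 to 29057808 expected counts, which sets the precision of genes with few reads.

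After rounding, genes were kept by edgeR's filterByExpr (at least 10 counts in enough libraries and 15 in total), and libraries were scaled by TMM and tested with edgeR 4.0.16 (R 4.3.3) in its quasi-likelihood framework, adjusting p-values by Benjamini-Hochberg over the 14010 genes left. SE is the absolute log2 fold change divided by the square root of F, and intervals are 95%. Calls used an adjusted p under 0.05, alone or with a log2 fold change beyond 1. Normalized counts are counts divided by scaled library size and multiplied by its mean. Shares were tested with two-sided exact permutation tests (scipy 1.17.1). The shares within a family are not independent of each other. Alternatives were DESeq2 1.42.0, upper-quartile scaling, library totals, no filter, counts not rounded, limma 3.58.1 on log2 of FPKM plus a pseudocount of 1 or 0.1, each library left out, and a seed of bases 2 to 7. p-values measure the spread between cultures only.

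The 10 genes and all lists were chosen with earlier results of these data known. Besides the 10 genes, Pdgfra and Pdgfrb, the genes named are the 2 largest rises and 2 largest falls of each list among those with an adjusted p under 0.05 and a mean of at least 100 normalized counts. A gene that this rule names is not reported here. Positions come from GENCODE M21 (GRCm38, the same assembly as mm10).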

Additional observations from a re-analysis of the deposited data

How the results depend on the processing

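Fgf7, Fgfr2 and Pdgfb kept their direction and an adjusted p under 0.05 under all 13 alternatives. The log2 fold change of Fgf2 was -1.50 without control replicate 1 and -1.32 without control replicate 2 and missed the threshold in both, and over all libraries left out it was -1.82 to -1.07. Fgfrl1 was -0.30 to -0.20 with a library left out and missed the threshold in 4 of these fits. Fgfr1 missed it under library totals (0.13), log2(FPKM + 1) (0.12) and log2(FPKM + 0.1) (0.12), while Pdgfc passed it as a fall (-0.19, -0.17 and -0.19). In the same 3 settings Fgf10 (-0.0625, -0.0499 and -0.0651) and Pdgfa (-0.0773, -0.0913 and -0.0991) turned negative, and 0 of the 10 genes were higher in place of 1. Over all genes, 1704, 1697 and 1694 were higher in these 3 settings, in place of 2663. These settings share the scale of library totals, which lowers the median of all genes to between -0.17 and -0.13. Genes near 0 changed sign with a library left out, over ranges of -0.29 to 0.12 for Fgfr3, -0.0634 to 0.218 for Pdgfa and -0.0377 to 0.0159 for Pdgfc, where values that turned were 0.0409, 0.0863 and 0.123 for Fgfr3, -0.0634 for Pdgfa and 0.0151, 0.0159 and 0.00149 for Pdgfc. With a library left out, 3 to 5 of the 10 genes were lower at any fold and 1 to 2 beyond a log2 fold change of 1. In the same fits, 1907 to 3014 of the 14129 to 14160 genes tested were lower at any fold. Beyond a log2 fold change of 1, 698 to 738 were lower. Over the 5 pathway lists, genes lower at any fold were 36 (library totals), 36 (log2(FPKM + 1)) and 35 (log2(FPKM + 0.1)) in place of 19. Over all genes tested, 4962, 4916 and 4904 were lower in the same settings, in place of 2582. Genes higher beyond a log2 fold change of 1 were 7, 4 and 7 in place of 11, and genes lower beyond it were 5 with log2(FPKM + 1) in place of 9. Over all genes, 657, 348 and 591 were higher beyond a log2 fold change of 1 in these settings, in place of 809. With log2(FPKM + 1), 352 were lower beyond it, in place of 737. All shares kept their sign, and none could pass the threshold with 3 libraries against 3. With a seed of bases 2 to 7, 9 of the 10 genes held a match in place of 4. Over all genes, such matches to single miRNAs were present in 31.4% (miR-351-5p) to 38.5% (miR-322-5p and miR-503-5p), apart from 4.36% for miR-450a-5p. The share of all genes with a match to any of these shorter seeds was not computed. The count of 9 thus has no background to stand beside. No paired analysis was possible because the mRNA-seq groups share no replicate numbers and the small RNA values come from no test. Depth limits Fgfr3, with 9 to 17 reads per library, and Fgf2.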
